A study of Homo sapiens with 4 samples.

Results

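CTCF peaks were examined on chromosomes 4, 13 and 18, the autosomes with the fewest genes per Mb. Their members were all peaks of the 4 deposited lists on these chromosomes whose summit lay outside 3 kinds of excluded sequence: the last 2 Mb at either chromosome end, the centromere, and 5 Mb on each side of it, in GRCh37 coordinates. This left 462 and 461 peaks in aclarubicin replicates 1 and 2, of 10633 and 10711 in those lists. In daunorubicin replicates 1 and 2 it left 217 and 294 peaks, of 5886 and 6638. Merging the 4 lists gave 663 member regions of 13962 in all. The other 19 autosomes, trimmed by the same distances, served as background and held 11254 regions.

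The libraries came from K562, a human erythroleukaemia line with a rearranged karyotype, whose chromosome copy numbers were not analysed here. All cells received an anthracycline at 10 µM for 4 hours, either aclarubicin or daunorubicin, with 2 biological replicates per drug, and chromatin was immunoprecipitated for CTCF. Untreated cells were not analysed here, and the drugs are compared with each other. Relative depth, which was solved from the peaks' fold and p by a formula that is assumed, ranged from 0.814 (daunorubicin replicate 2) to 1.04 (aclarubicin replicate 2), with aclarubicin replicate 1 set to 1.

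CTCF is a zinc-finger protein that binds a long, GC-containing motif and halts cohesin, so that bound sites often form the anchors of chromatin loops and the borders of domains. Its sites are known to be denser in gene-rich sequence, and gene-poor chromosomes are known to lie towards the nuclear periphery and to replicate late over much of their length. Daunorubicin traps topoisomerase II on DNA and produces breaks. Aclarubicin does not produce such breaks. A ChIP-seq peak pools many cells, so fewer cells with CTCF at a site and less CTCF in each cell cannot be told apart.

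The label of these chromosomes held in the data. In the RefSeq gene table (GRCh38), chromosome 13 had 338 protein-coding genes, or 2.96 per Mb between its first and last gene. Chromosome 18 had 270 genes (3.37 per Mb) and chromosome 4 had 769 (4.04 per Mb). These were the 3 lowest densities of the 22 autosomes. Other autosomes ranged from 4.92 per Mb on chromosome 8 to 24.8 on chromosome 19.

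The same 3 chromosomes had the lowest density of CTCF peaks. After aclarubicin there were 1.42 and 1.42 peaks per Mb in replicates 1 and 2, against 4.03 and 4.04 on other autosomes. After daunorubicin there were 0.669 and 0.906 peaks per Mb, against 2.27 and 2.56. On each library's own scale, other autosomes were 2.83, 2.85, 3.40 and 2.82 times as dense, in the order aclarubicin 1 and 2, daunorubicin 1 and 2. The mean log2 ratio of density, members over other autosomes, was -1.57 ± 0.13 (SD, n = 4 libraries). It was below 0 in 4 of 4 libraries, and the exact two-sided sign-flip p was 0.125, the smallest that 4 libraries allow.

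Chromosome 13 had the lowest mean density of the 22 autosomes, with 1.02 and 1.10 peaks per Mb after aclarubicin and 0.516 and 0.718 after daunorubicin. Chromosome 18 had 1.44, 1.34, 0.475 and 0.786 peaks per Mb in the same order of libraries. Chromosome 4 had 1.63, 1.61, 0.815 and 1.05. The next in order, chromosome 8, had a mean of 1.83 peaks per Mb over the 4 libraries, against 1.27 on chromosome 4, 1.011 on chromosome 18 and 0.838 on chromosome 13. Chromosome 18 lay above chromosome 13 in both aclarubicin libraries, while after daunorubicin their values overlapped. As a description over the 22 autosomes, peak density followed gene density (Pearson's r = 0.954, Spearman's rho = 0.950). Over the 19 other autosomes alone r was 0.948, so the relation did not rest on the 3 gene-poor chromosomes. Chromosomes share a library and differ in base composition, so they are not independent points.

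**Figure D1:**
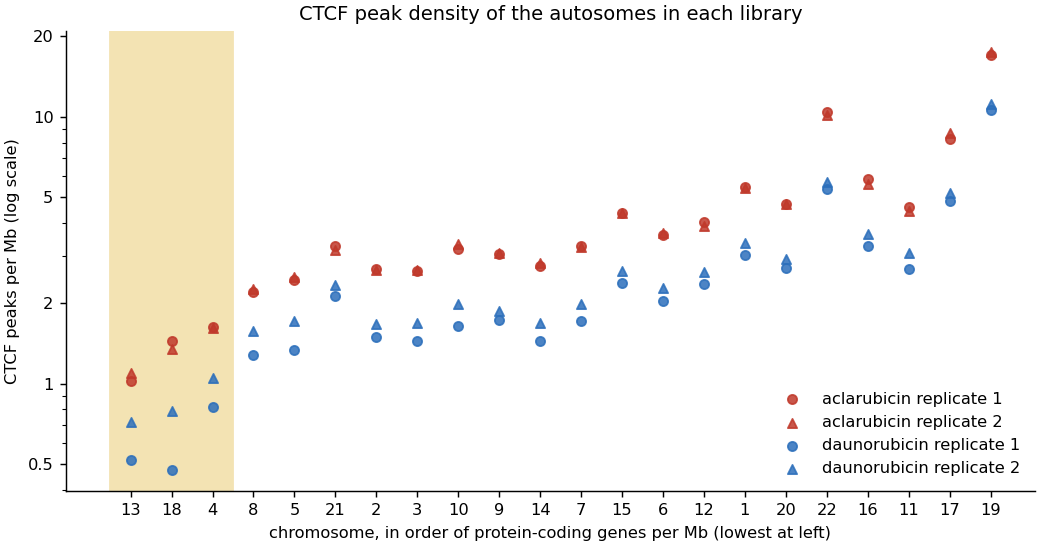
CTCF peaks per Mb (log axis) on each autosome, ordered by protein-coding genes per Mb, with 1 point for each of the 4 libraries. The shaded chromosomes 13, 18 and 4 are the 3 of lowest gene density, and they hold the lowest peak densities in each library, at 0.475 to 1.63 peaks per Mb.

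The chromosome ends that the rule excluded were denser than the members. Within 2 Mb of the ends of chromosome 4 there were 31, 29, 17 and 20 peaks, in the order aclarubicin 1 and 2, daunorubicin 1 and 2, or 7.75, 7.25, 4.25 and 5.00 per Mb. On chromosome 18 the rule removed 34.3% and 37.9% of the peaks after aclarubicin, and after daunorubicin 49.1% and 38.5%. The largest block lay around the centromere, with 33, 33, 20 and 20 peaks. At the border near the start of chromosome 4, the first member region, 2010681 to 2011231, had folds over background of 8.78, 5.77, 7.12 and 5.05. The last region left out there, 1914784 to 1915086, was called only after daunorubicin, with folds of 7.24 and 7.59.

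Between the drugs, more peaks were called after aclarubicin on the gene-poor chromosomes, as on the rest of the genome. The aclarubicin libraries held 462 and 461 member peaks and the daunorubicin libraries 217 and 294. The groups did not overlap. The mean was 461.5 ± 0.707 peaks after aclarubicin and 255.5 ± 54.4 after daunorubicin (SD, n = 2 each), a 1.83-fold difference in geometric means. This is 0.87 in log2 units, where the replicates' pooled SD was 0.22 (exact permutation p = 0.333, the smallest that 2 against 2 libraries can give). Other autosomes differed by 0.74 (1.67-fold).

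The drug difference on the gene-poor chromosomes did not exceed that elsewhere beyond the replicate spread. The member peaks made up 5.07% and 5.05% of the retained autosomal peaks after aclarubicin, and 4.26% and 5.09% after daunorubicin. Daunorubicin replicate 1 was low and replicate 2 lay above both aclarubicin libraries. The excess in log2 difference over other autosomes was 0.13, equal to the pooled SD of 0.13 (exact permutation p = 1). Without daunorubicin replicate 1 it was -0.0084. With lists cut to equal length it was -0.16 (exact permutation p = 0.333). The cut kept the peaks highest in −log10 p, a column by which members ranked lower than other peaks, as given below. The direction of the excess thus rested on that library and on this cut, where length and column cannot be told apart.

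Chromosome 18 had the highest drug difference of the 22 autosomes, a comparison singled out after its values were seen. It held 88 and 82 peaks after aclarubicin and 29 and 48 after daunorubicin. The drugs did not overlap, but the daunorubicin replicates were far apart. The log2 difference was 1.19, with a pooled SD of 0.37, and lay between 0.77 and 1.60 over the 4 pairs of libraries. Chromosomes 4 and 13 differed by 0.81 and 0.80, within the range of the other autosomes, 0.53 (chromosome 21) to 0.89 (chromosome 22). Without daunorubicin replicate 1, chromosome 18 differed by 0.82 and was second of 22, and with whole chromosomes in place of the trimmed ones it differed by 1.00 and was first. Across the 22 autosomes, peak density and drug difference were weakly related (Spearman's rho = -0.29, and -0.05 over the 19 other autosomes).

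**Figure D2:**
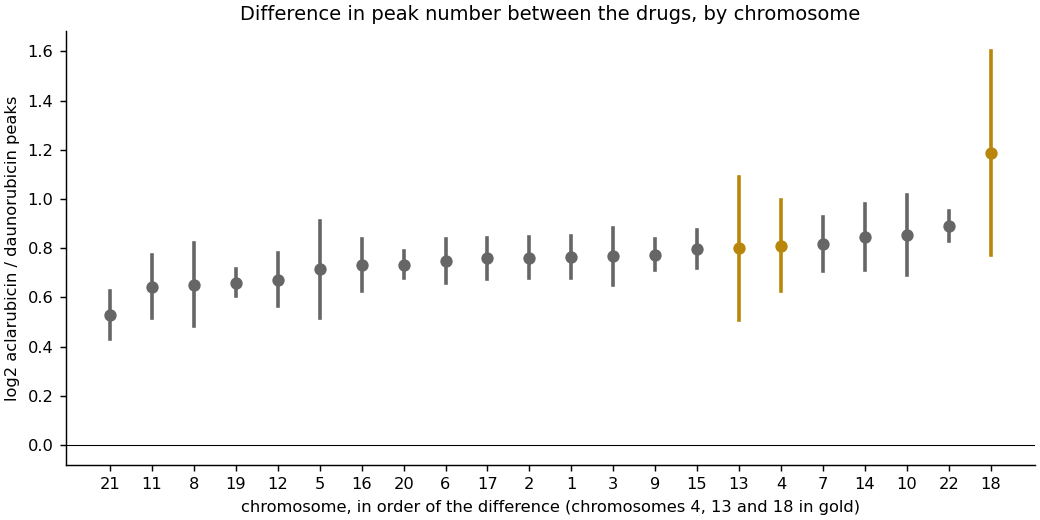
Difference in peak number between the drugs (log2 aclarubicin over daunorubicin) on each autosome, in order of size. Points are differences of mean log2 counts, bars run from the lowest to the highest of the 4 pairs of libraries, and gold marks chromosomes 4, 13 and 18; chromosome 18 is highest at 1.19, with a bar from 0.77 to 1.60.

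The difference was uneven along chromosome 18. From 43460001 to 53460000 there were 24 and 20 peaks after aclarubicin and 3 and 10 after daunorubicin. From 53460001 to 63460000 there were 16, 13, 5 and 8 in the same order. In the 2 windows nearer the centromere the drugs overlapped, with 9, 9, 7 and 10 peaks from 23460001 to 33460000, and 5, 6, 6 and 6 from 33460001 to 43460000. The short arm held 24, 25, 6 and 11 peaks. Over all full 10 Mb windows of the 3 chromosomes, both aclarubicin counts exceeded both daunorubicin counts in 22 of 30 windows (73.3%), and in 197 of 227 windows of all autosomes (86.8%). Window counts were lower on these chromosomes. The median member window held 13.5 and 13.5 peaks after aclarubicin and 5 and 9 after daunorubicin, against 28, 27, 15 and 17 elsewhere. The densest member window was the first of chromosome 4, 2000001 to 12000000, with 65, 62, 30 and 33 peaks. The emptiest was chromosome 13, 64000001 to 74000000, with 1, 0, 0 and 1.

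Long stretches without any CTCF peak were common. Taking all 4 lists together, gaps of over 1 Mb between neighbouring regions numbered 75 of 658 on the gene-poor chromosomes (11.4%) and 390 of 11220 on other autosomes (3.48%). They covered 59.2% of the retained length of chromosomes 4, 13 and 18 and 36.4% of that of other autosomes. The median gap was 163 kb against 58.3 kb. The longest gap between neighbouring regions within a retained arm of the 22 autosomes, 10.47 Mb, lay on chromosome 13 from 80917408 to 91384166. Chromosome 4 was without a region from 58057436 to 65024499 (6.97 Mb), and chromosome 18 from 61662407 to 68101137 (6.44 Mb). On other autosomes the longest such gap, 7.35 Mb, lay on chromosome 9. Empty stretches from the retained edge of an arm to its first region were not measured as gaps. They count in the retained length but not in the shares of 59.2% and 36.4%. On other autosomes, chromosome 1 from 129535435 to 139535434 and chromosome 9 from 55367680 to 65367679 held 0 peaks in all 4 libraries. Whether these windows hold assembled sequence was not examined, so 0 peaks there need not mean absence of CTCF. Unassembled sequence was left out of lengths only on acrocentric short arms. Both windows therefore remain in the retained length, densities and window counts of other autosomes.

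Within each list, member peaks stood further apart. The median distance to the nearest peak of the same list was 113 and 111 kb after aclarubicin, against 33.4 and 33.6 kb on other autosomes. After daunorubicin it was 232 and 197 kb, against 56.6 and 55.6 kb. A neighbour within 10 kb was found for 40 of 462 (8.66%), 43 of 461 (9.33%), 12 of 217 (5.53%) and 14 of 294 (4.76%) member peaks in the 4 lists. On other autosomes the shares were 20.9%, 21.3%, 14.2% and 14.6%. The mean difference was -10.7 ± 1.71 percentage points (SD, n = 4 libraries, lower in 4 of 4, exact sign-flip p = 0.125). On chromosome 13, 0 of 46 and 0 of 64 daunorubicin peaks had such a neighbour, against 4 of 91 and 6 of 98 aclarubicin peaks.

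Member peaks combined few fragments with a low background. Both quantities, fragments over the summit and the background expected there, rest on the assumed formula. The median member peak had 30 and 32 fragments after aclarubicin and 29 and 25.5 after daunorubicin. On other autosomes the medians were 46, 48, 36 and 34. The local background, divided by the lowest background of the list, had a median of 1.53, 1.63, 1.70 and 1.65 at member peaks and of 3.31, 3.31, 2.60 and 2.67 elsewhere. Chromosomes 13, 18 and 4 had the lowest mean background of the 22 autosomes, at 1.42, 1.60 and 1.72, followed by chromosome 8 at 1.91. The gap in background between members and other autosomes was 2.16-fold and 2.04-fold after aclarubicin and 1.53-fold and 1.62-fold after daunorubicin.

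The rank of member peaks within their list differed by column. By fold, the authors' ratio of signal to background, the median member peak stood at percentile 57.73, 58.3, 56.6 and 54.2 of its list, and the median peak of other autosomes at 50.4, 50.5, 49.3 and 49.5. The mean difference was 6.75 ± 1.40 points (SD, n = 4 libraries, above 0 in 4 of 4, exact sign-flip p = 0.125). By −log10 p, which grows with the number of fragments, the median member peak stood at percentile 41.0, 42.5, 42.4 and 40.9, a mean difference of -9.05 ± 1.23 points (lower in 4 of 4, exact sign-flip p = 0.125). Whether members ranked high or low therefore depended on the column. Single libraries departed from this on 2 chromosomes: chromosome 18 in daunorubicin replicate 2 by fold (-1.28 points) and chromosome 13 in daunorubicin replicate 1 by −log10 p (1.63 points). Their folds ran from 2.42 to 23.6 and from 2.84 to 20.01 after aclarubicin, and from 3.90 to 18.5 and from 3.98 to 22.1 after daunorubicin.

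Peaks were wider after aclarubicin on these chromosomes and on the others. Median widths were 340 and 356 bp after aclarubicin and 306 and 305.5 bp after daunorubicin. The groups did not overlap, and the difference of 42.25 bp exceeded the pooled SD of 8.004 bp (exact permutation p = 0.333). On other autosomes the medians were 371 and 385 bp after aclarubicin and 318 and 329 bp after daunorubicin, so the groups did not overlap there either. In each library, member peaks were narrower than those of other autosomes, with a mean difference of -23.9 ± 8.53 bp (SD, n = 4 libraries, exact sign-flip p = 0.125). Chromosome 18 had the narrowest of the 3, at 331.5, 331.5, 279 and 287.5 bp.

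The member regions were sorted by the libraries in which they were called. Of the 663, 128 were called in all 4 libraries (19.3%, 95% Wilson interval 16.5% to 22.5%), against 29.5% of all regions of the series and 30.7% of those on other autosomes. A total of 156 were called in both aclarubicin libraries and in neither daunorubicin library (23.53%), against 23.8% in the whole series. Another 79 were called in both aclarubicin libraries and 1 daunorubicin library (11.9%, against 9.86%). In the other direction, 19 were called in both daunorubicin libraries and neither aclarubicin library (2.87%, against 3.17% in the whole series), and 19 in both daunorubicin libraries and 1 aclarubicin library (2.87%, against 2.20%). A further 16 were called in 1 library of each drug (2.41%, against 2.73%). The remaining 246 were called in 1 library only (37.1%, 33.5% to 40.8%), against 28.7% in the whole series. Of these, 162 came from an aclarubicin list (24.4%, against 21.4% in the whole series) and 84 from a daunorubicin list (12.7%, against 7.27%). Shares of regions called in both libraries of one drug alone were near the background. Regions in all 4 lists were fewer, and calls in a single daunorubicin library more frequent. The 84 were not split by replicate. Of daunorubicin replicate 2, 166 of 294 member peaks were overlapped in replicate 1, and of replicate 1, 166 of 217 in replicate 2. These intervals treat regions as independent and cover counting error only.

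Among the 363 member regions called in both aclarubicin libraries, 43.0% were called in neither daunorubicin library (37.98% to 48.1%), against 37.7% in the whole series and 36.8% (35.7% to 37.9%) on other autosomes. The intervals of members and other autosomes all but touched, and the share changed with the lists used: it was 26.8% with lists of equal length and 49.3% to 58.4% with a replicate left out. The share on other autosomes was not computed in these settings, so a change in members cannot be told from one in all regions. The share was 40.9% of 225 regions on chromosome 4 and 39.4% of 71 on chromosome 13. On chromosome 18 it was 53.7% of 67 (41.9% to 65.1%), the highest of the 22 autosomes, where others lay between 30.4% and 40.9%. Of the 166 regions called in both daunorubicin libraries, 11.4% were called in neither aclarubicin library (7.45% to 17.2%), against 9.09% in the whole series and 9.16% on other autosomes.

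**Figure D3:**
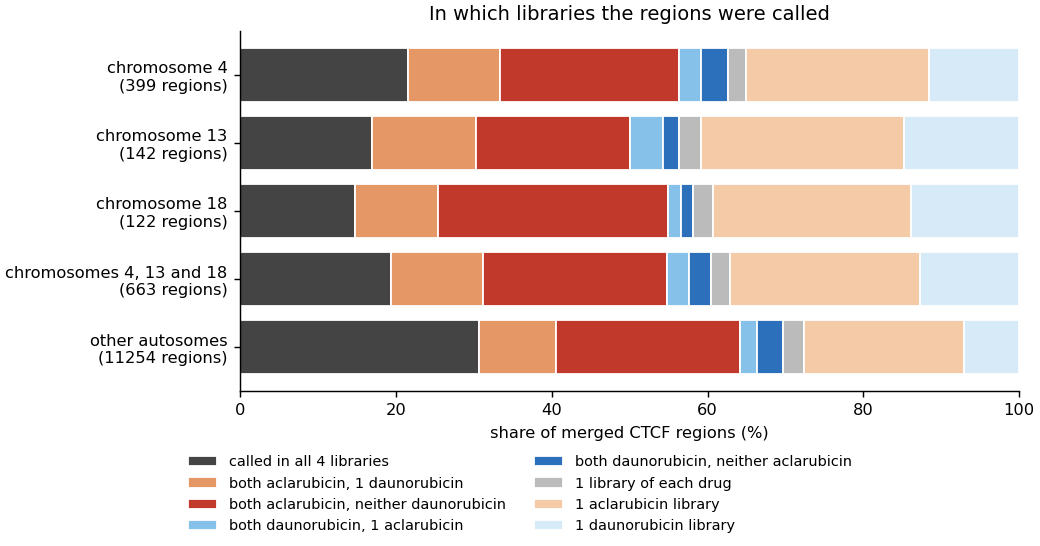
Share of merged CTCF regions (%) by the libraries in which they were called, for each gene-poor chromosome, for the 3 together and for other autosomes; the segments of a bar sum to all regions of that set. The dark segment, called in all 4 libraries, is 19.3% on the 3 chromosomes and 30.7% on other autosomes.

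Member peaks were also found again less often in another list, whichever list was searched. Of aclarubicin member peaks, 34.6% and 36.2% were overlapped in daunorubicin replicate 1 and 42.6% and 43.4% in replicate 2, against 46.2%, 46.6%, 50.8% and 50.8% on other autosomes. The mean difference was -9.39 points (-9.84 and -8.93 in the 2 aclarubicin libraries, exact sign-flip p = 0.5, the smallest that 2 libraries allow). Of daunorubicin member peaks, 73.7% and 77.0% (replicate 1) and 67.0% and 68.0% (replicate 2) were overlapped in an aclarubicin list. Other autosomes gave 81.9%, 82.9%, 80.1% and 80.4%, a mean difference of -9.90 points (-7.05 and -12.8, exact sign-flip p = 0.5).

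Replicates of the same drug showed the same direction. In the other aclarubicin replicate, 78.6% and 78.7% of member peaks were overlapped, against 83.5% and 83.3% on other autosomes. Between the daunorubicin replicates, the shares were 76.5% and 56.5%, against 83.5% and 74.2%. The lower recovery of members was thus present without a change of drug. The daunorubicin replicate 2 list was recovered least in its own replicate, 166 of 294 member peaks.

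Recovery was compared at equal strength in alternatives added after the data were seen. Within deciles of fold, aclarubicin member peaks were overlapped in a daunorubicin list less often than other peaks by 12.2 to 15.0 points over the 4 pairs of libraries, and in the other aclarubicin replicate by 8.32 and 8.41 points. Within deciles of −log10 p, the mean difference towards daunorubicin was -1.35 points, between -3.01 and 0.084 over the pairs, and -0.67 towards the other replicate. For daunorubicin member peaks it remained at -6.94 points towards aclarubicin and -7.98 points towards the other replicate. Among the weakest 20% of aclarubicin replicate 1 by fold, 4% and 2% of 50 member peaks were overlapped in daunorubicin replicates 1 and 2, against 16.4% and 16.7% of 1688 peaks elsewhere. In the strongest 20% the shares were 73.7% and 78.9% of 95, against 84.7% and 87.7% of 1759. The part of fragment number in the lower recovery was not tested beyond these strata.

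**Figure D4:**
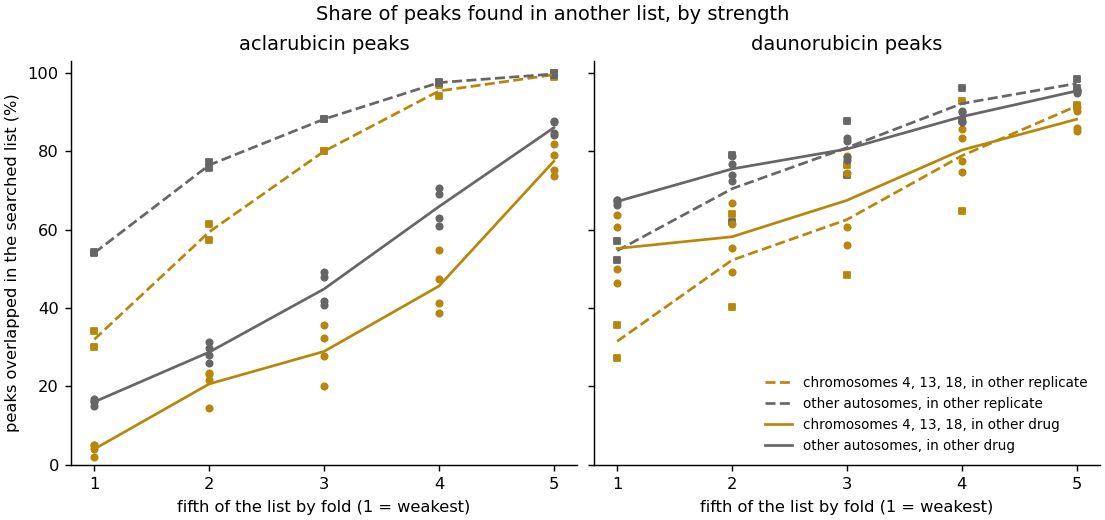
Share of peaks (%) overlapped by at least 1 bp in another list, in 5 equal classes of the peak's own list by fold, for aclarubicin peaks (left) and daunorubicin peaks (right). Points are pairs of libraries and lines their means, solid for the other drug and dashed for the other replicate; the gold lines of chromosomes 4, 13 and 18 lie below the grey lines of other autosomes in each class.

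The 128 member regions called in all 4 libraries allowed a comparison of signal at the same sites. Their median fragments over the summit were 53 and 55 after aclarubicin and 34.5 and 34 after daunorubicin. After division by the relative depth given above, which rests on the assumed formula and is no read count, the daunorubicin libraries lay below both aclarubicin libraries in 79 of 128 member regions (61.7%, against 71.6% of all regions called in 4 libraries) and above both in 10 (7.81%, against 7.13%). The median log2 ratio of daunorubicin to aclarubicin was -0.47, a ratio of 0.724, with an interquartile range from -0.83 to -0.11. On other autosomes the median was -0.71, a ratio of 0.610. Taken per library around the mean of the 4, the gap between members and other autosomes was -0.14 and -0.09 for aclarubicin and 0.17 and 0.12 for daunorubicin, so the drugs did not overlap (difference 0.25, exact permutation p = 0.333). Regions missing from any list are not in these medians. The shared regions of other autosomes had more fragments, with medians of 77 and 81 after aclarubicin and 42 and 43 after daunorubicin. Members and other autosomes were not compared at equal fragment number here, so the part of strength in this gap was not tested.

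At member regions the background differed less between the drugs than the fragments did. Divided by the lowest background of its list, it cannot fall below 1. Of all member peaks in the 4 lists, 19.9%, 15.4%, 5.07% and 11.9% lay within 1% of that floor. On other autosomes 6.09%, 4.60%, 2.42% and 2.90% did. The part of this floor in the smaller difference was not tested. Relative to the lowest background of each list, the median member background was 2.07, 2.02, 1.76 and 2.02, and the drugs overlapped. It was lower in both daunorubicin libraries in 55 of 128 regions (43.0%, against 75.8% of all shared regions), with a median log2 ratio of -0.10. On other autosomes it was 4.198, 4.19, 2.80 and 3.11, with a ratio of -0.48. In fold, which divides signal by background, the median log2 ratios were -0.34 for members and -0.29 for other autosomes. That difference of -0.05 was not of one sign within the drugs (exact permutation p = 0.667). The fold was lower in both daunorubicin libraries in 78 of 128 member regions (60.9%, against 56.8% of all shared regions) and higher in both in 7 (5.47%, against 13.2%). By chromosome, the median log2 ratio of fragments was -0.53 over 86 regions of chromosome 4, -0.36 over 24 of chromosome 13 and -0.33 over 18 of chromosome 18, each above the -0.71 of other autosomes.

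**Figure D5:**
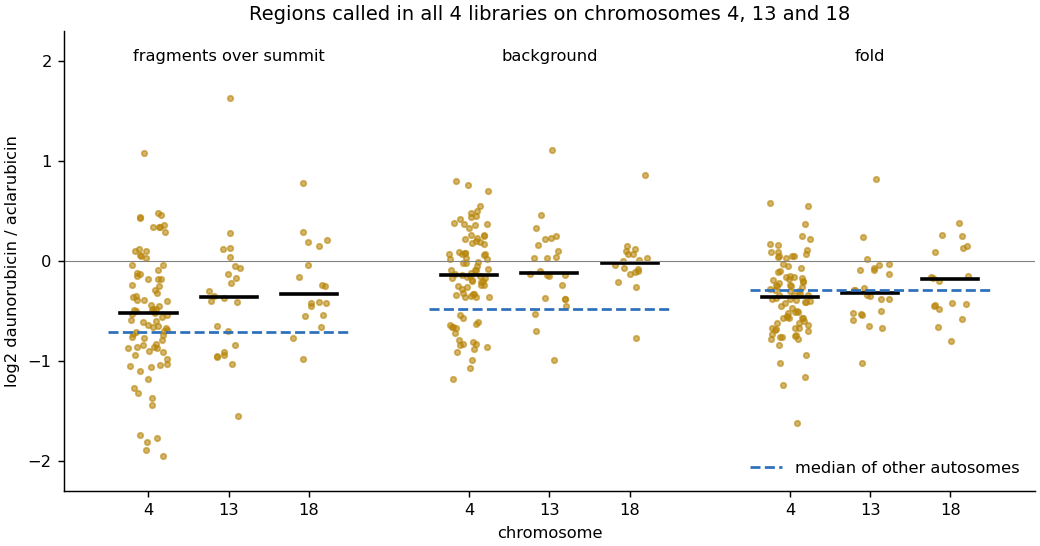
Log2 ratio of daunorubicin to aclarubicin at the 128 regions of chromosomes 4, 13 and 18 called in all 4 libraries, for summit fragments divided by relative depth, local background and fold; each point is a region and black bars are medians by chromosome. Dashed lines are medians of other autosomes, -0.71 for fragments, -0.48 for background and -0.29 for fold, and the member medians lie above the first 2 of them.

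Of the regions found in every library, the one ranking highest by mean fold percentile was on chromosome 4, 148787909 to 148788353 (GRCh37). Its folds were 16.6 and 20.01 after aclarubicin and 14.9 and 16.04 after daunorubicin. The next, on chromosome 13 at 25861431 to 25861926, had folds of 23.6, 18.5, 14.6 and 14.3 and fragments of 122, 90, 46 and 49, so both daunorubicin values lay below both aclarubicin values. The third, on chromosome 4 at 71553682 to 71554240, had 150, 163, 102 and 92 fragments and folds of 17.9, 19.3, 15.4 and 14.1. The top region of chromosome 18, 2104830 to 2105293, had folds of 18.7, 14.5, 14.6 and 14.1, and there the drugs overlapped. Genes and motifs at the named positions were not analysed here.

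The strongest aclarubicin-only member, on chromosome 4 at 4386506 to 4386982, had 105 and 97 fragments, folds of 14.9 and 14.9, and a −log10 q of 84.9 in replicate 1 and 79.0 in replicate 2. The next lay on chromosome 18 at 57504719 to 57505141 and had 40 and 38 fragments and folds of 13.8 and 12.8. The third, on chromosome 4 at 71875688 to 71876108, had 43 and 51 fragments and folds of 11.5 and 12.7. Most aclarubicin-only members were weaker, with median folds of 7.68 and 7.75 and median fragments of 28 and 30.5, against folds of 11.1 and 11.3 and fragments of 53 and 55 in members called in all 4 libraries. On other autosomes the aclarubicin-only regions had lower folds, 6.37 and 6.32, over more fragments, 39 and 41.

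Among the 19 daunorubicin-only members the strongest, on chromosome 13 at 91669620 to 91670005, had 64 and 70 fragments, folds of 10.4 and 11.6, and a −log10 q of 42.0 in replicate 1 and 49.2 in replicate 2. The second, chromosome 4, 167087017 to 167087284, had 21 and 26 fragments and folds of 8.27 and 11.4. The third, chromosome 4, 158125661 to 158126106, had 23 and 25 fragments and folds of 9.03 and 9.88. The median over the 19 was 23 and 27 fragments. Since lists give values only where a peak was called, drug-specific regions have no ratio between drugs.

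At the regions called in all 4 libraries, the ratio of daunorubicin to aclarubicin fragments ranged widely. The lowest 2 lay on chromosome 4. At 141444778 to 141445532 the counts were 73 and 61 after aclarubicin and 21 and 11 after daunorubicin, a ratio of 0.258 after division by relative depth, and the folds fell from 18.5 and 15.0 to 7.23 and 4.04. At 3794497 to 3795024 they were 85, 95, 17 and 27, a ratio of 0.27. The highest ratio, 3.10, belonged to chromosome 13, 61047732 to 61048136, with 31 and 31 fragments after aclarubicin and 72 and 100 after daunorubicin, and folds of 11.7, 11.2, 18.5 and 22.1. This region stood alone, 2848 kb from the region on its left and 9383 kb from that on its right. The second highest, chromosome 4, 123638000 to 123638377, had 16, 37, 53 and 39 fragments, a ratio of 2.12. There the aclarubicin replicates differed from each other by more than the second aclarubicin library differed from the second daunorubicin library.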

How the data were processed

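CTCF ChIP-seq peak lists of 4 K562 libraries were analysed. Per the submitters' processing notes, Bowtie2, Picard and bedtools were used with GRCh37 (hg19). The peak caller, its threshold and any control are not given in the sources used here. The authors deposited 1 list per library, giving each peak a fold ratio over background, a −log10 p and −log10 q, and a score that was not used. Other deposited columns are positions, printed here 1-based. Fold, −log10 p and −log10 q serve to describe or rank peaks within a list.

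Chromosome lengths and centromeres were entered by hand. The unassembled short arms of the 5 acrocentric chromosomes were left out of lengths. Fragments k and background λ were solved from fold = (k + 1)/(λ + 1) and a Poisson p. This formula is an assumption. It returned whole k, to within 0.02, for 100% of peaks. Relative depth is the lowest λ over the shortest width. Solving for k was tested on values simulated with the same formula, which cannot test the formula itself. Overlap calls were tested against bedtools 2.31.1. Relative depth was not tested.

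Overlap meant at least 1 bp. Drugs were compared by exact two-sided permutation of 2 against 2 libraries, and chromosomes by exact sign-flip over libraries. Intervals are 95% Wilson intervals. Named regions were the top 3 per class by mean fold percentile, the top of each chromosome, the 2 highest and 2 lowest fragment ratios, and the longest gaps. The members, lists and tests were chosen with earlier results of these data known. Replicate numbers do not mark a shared batch in the labels, so libraries were not paired. Promoter and motif sequences were not analysed here. Software was scipy 1.17.1, numpy 2.4.6 and pandas 2.3.3 under Python 3.11.15, and figures used matplotlib 3.10.9.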

Additional observations from a re-analysis of the deposited data

How the results depend on the processing

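Alternatives were thresholds on −log10 q (5 and 10) and fold (5), other rules for overlap and neighbours, strength strata and untrimmed other autosomes. Further ones were lists of equal length (cut by −log10 p), each of the 3 chromosomes left out and each replicate left out. Of the 11 results, 8 kept their direction in each alternative run. Among these 8, the difference in overlap of aclarubicin peaks by daunorubicin peaks shrank from -9.39 to -1.35 points within deciles of −log10 p. Its pairs of libraries then lay between -3.01 and 0.084. The excess drug difference of the gene-poor chromosomes (0.13) lay between -0.0084 and 0.26 with a replicate left out, and was -0.16 with lists of equal length. The percentile difference (6.75 by fold) was -9.05 by −log10 p. The aclarubicin-only share of 43.0% was 48.2% at a −log10 q of at least 10, 26.8% with lists of equal length, and 49.3% to 58.4% with a replicate left out, when 1 list defines the class. The matching shares of other autosomes were not computed. With the replicate number as a replicate block, the log2 differences stayed at 0.87, 0.74 and 0.13 and the width difference at 42.25 bp, by construction, with a smallest sign-flip p of 0.5. Same-numbered libraries did not deviate together (r = -0.08 over shared regions). No exact test here can pass 0.05, so these checks say nothing about significance. A reciprocal overlap of 50% was not run for merged regions. The lists hold called peaks only, and signal below the threshold is unknown.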
